A study of Mus musculus with 13 samples.

Results

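Hox genes encode homeodomain transcription factors that give cells their position along the body axis, and in mice they lie in 4 clusters. All protein-coding genes whose symbols start with Hoxa, Hoxb, Hoxc or Hoxd were taken, which gave 39 of the 21883 protein-coding genes of chromosomes 1 to 19, X and Y. Each cluster was examined from its first to its last gene with 50 kb on each side. In mm10 coordinates these windows were chr6:52105367-52310880 for Hoxa (11 genes), chr11:96144316-96418254 for Hoxb (10 genes), chr15:102871131-103086856 for Hoxc (9 genes) and chr2:74618225-74815142 for Hoxd (9 genes). The choice used symbols and positions, not measured binding.

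The series mapped STAG1, STAG2 and CTCF by chromatin immunoprecipitation and sequencing (ChIP-seq) in NU1, a line of normal mouse urothelial cells that became immortal spontaneously and is labelled wild type. Proliferating cells were compared with quiescent cells, which were grown to confluence and then held in medium with 1 uM rosiglitazone, an agonist of PPAR gamma, and 0.5 uM erlotinib, an inhibitor of the EGF receptor kinase. The 3 antibodies in 2 states gave 6 groups of 2 biological replicates, or 12 libraries. The drugs and confluence came together, so their parts in any difference between the states cannot be told apart, and 1 cell line is the only model. The study's question was the role of STAG2, which is often mutated in bladder tumours, together with the repressor complex DREAM in resting urothelium. No expression was measured in these files, so the urothelial label and the activity of the Hox genes could not be checked against transcripts. ChIP on a population cannot tell fewer cells with a bound site from weaker binding in each cell.

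Within a Hox cluster the order of the genes along the chromosome follows the order of their expression domains from head to tail, and genes with the same number in different clusters are paralogs. Polycomb complexes keep unused Hox genes silent, and CTCF sites inside the clusters are known to mark borders between silent and active stretches. Cohesin, which contains either STAG1 or STAG2, extrudes DNA loops and often halts at CTCF.

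Promoter sequences of 3 genes show what lies under sites described below. They come from RefSeq (GRCm38.p6, the same build as mm10), run from 250 bp before to 50 bp after a transcription start, and are written 5′ to 3′ on the gene's strand. The Hoxa5 window (chr6:52204538-52204837, minus strand) and the Hoxd10 window (chr2:74691641-74691940, plus strand) lie under peaks of all 12 libraries. The Hoxa10 window (chr6:52240805-52241104, minus strand) was added after its values were seen, because CTCF ranked high and STAG1 and STAG2 low at that end of the gene. Capitals mark AGGGGGC or AGGTGGC, the inner letters of the CTCF motif, on either strand, and where neither occurs, CCCTC on either strand.
Hoxa5: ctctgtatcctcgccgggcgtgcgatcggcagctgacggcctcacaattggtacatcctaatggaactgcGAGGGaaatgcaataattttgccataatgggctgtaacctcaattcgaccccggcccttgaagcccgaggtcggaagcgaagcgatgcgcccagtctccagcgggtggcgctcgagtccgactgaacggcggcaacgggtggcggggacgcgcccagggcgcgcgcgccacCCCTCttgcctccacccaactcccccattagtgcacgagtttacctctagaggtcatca
Hoxd10: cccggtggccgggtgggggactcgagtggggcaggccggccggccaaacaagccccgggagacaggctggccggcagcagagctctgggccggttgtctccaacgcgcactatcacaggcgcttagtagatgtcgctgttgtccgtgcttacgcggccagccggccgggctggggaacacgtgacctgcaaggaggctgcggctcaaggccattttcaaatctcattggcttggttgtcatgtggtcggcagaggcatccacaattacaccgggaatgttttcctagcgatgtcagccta
Hoxa10: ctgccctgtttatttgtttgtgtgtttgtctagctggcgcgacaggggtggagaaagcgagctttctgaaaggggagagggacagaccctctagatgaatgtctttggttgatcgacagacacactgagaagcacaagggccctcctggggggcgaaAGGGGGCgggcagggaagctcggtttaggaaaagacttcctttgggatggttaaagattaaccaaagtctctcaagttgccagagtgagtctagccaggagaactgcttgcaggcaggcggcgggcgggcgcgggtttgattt

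In the Hoxa10 window AGGGGGC stood at bases 158 to 164, counted from 1 at the 5′ end. The Hoxa5 window held GAGGG, the reverse complement of CCCTC, at bases 71 to 75 and CCCTC at bases 242 to 246. The Hoxd10 window, although under a peak in every library, held none of these letters. Of the 39 genes, 22 had a window in the table, with 24 windows in all. AGGGGGC or AGGTGGC was found on either strand in 3 of those 24 windows (Hoxd13, Hoxa10 and Hoxa11), or 12.5%, against 16.0% of all 32851 windows. CCCTC or its reverse complement was in 17 of the 24, or 70.8%, against 66.0% of all windows. A G before AGGGGGC makes the searches overlap, since those letters then contain GAGGG. Over the whole table AGGGGGC or AGGTGGC was in 28.1% of the 7744 windows with a peak in all 4 CTCF libraries and in 10.3% of the 20146 windows with none. Of the Hox windows 1 of 7 with and 1 of 9 without CTCF held it. CCCTC or its reverse complement was in 57.1% of those 7 and 66.7% of those 9, the reverse order of the 79.4% and 58.0% over the table, on counts too small to compare. Hox windows had a median GC content of 57.7%, against 52.7% over the table.

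The deposited lists held between 34281 and 71757 peaks a library and no read totals, so depth is unknown, and the number of peaks in a list is the only measure of how much was called. STAG1 and STAG2 lists held 34281 to 50468 peaks and CTCF lists 51835 to 71757. The fold enrichments quoted are the authors' own values for each peak over background, and they describe or rank peaks inside 1 list. The 2 lists of a group shared 9 to 22 identical intervals, at most 0.0408% of the shorter list, so no 2 replicates of a group were copies of each other.

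The Hox windows held many peaks in every library, most of them between the first and the last gene. Counts were 63 and 109 in the proliferating STAG1 libraries (replicates 1 and 2), 76 and 67 in the quiescent STAG1 libraries, 84 and 94 in the proliferating STAG2 libraries, and 104 and 72 in the quiescent STAG2 libraries. CTCF gave 89 and 94 in proliferation and 81 and 87 in quiescence. The 2 proliferating STAG1 libraries were the lowest and the highest of all 12, so the spread within that group spanned all other libraries. The 2 replicates of a state lay closest together for CTCF. The windows held 7.06 to 12.2 peaks per 100 kb (median 9.58 over 12 libraries), and the genome 1.26 to 2.64. The ratio of the Hox density to that of the genome lay between 3.70 and 8.26, above 1 in 12 of 12 libraries. Between the first and last gene the density was 10.97 to 18.5 per 100 kb, and in the flanks 2.25 to 4.50. Keratin genes of chromosomes 11 and 15, 53 epithelial filament genes treated the same way, had 5.10 to 8.85 peaks per 100 kb, below the Hox windows in 12 of 12 libraries. These densities are descriptions, with no test, since neighbouring peaks of 1 library are not replicates.

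The 4 clusters were not alike. Hoxb had the most peaks per 100 kb in 10 of 12 libraries (9.86 to 16.1), and Hoxc the fewest in 12 of 12 (2.32 to 6.95). Hoxc was sparser than the keratin windows in 11 of 12 libraries but denser than the genome in all 12. Hoxa ranged from 8.27 to 16.1 and Hoxd from 6.09 to 10.7 peaks per 100 kb. In peaks a library, Hoxa had 17 to 33, Hoxb 27 to 44, Hoxc 5 to 15 and Hoxd 12 to 21.

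The Hox peaks had lower median folds than their lists, yet larger shares of strong peaks. The median fold of the Hox peaks was below that of the whole list in 12 of 12 libraries, at 6.02 to 8.98 against 6.99 to 9.81. Between 51.7% and 60.6% of the Hox peaks ranked at or below the median of their list, where a whole list has 50%. At the other end, 11.0% to 16.7% of STAG1 and STAG2 Hox peaks and 20.2% to 22.2% of CTCF Hox peaks ranked above the 90th percentile of their list. The 4 CTCF libraries therefore lay above all 8 STAG libraries in the share of Hox peaks that were strong. A whole list has 90% of its peaks at or below that percentile. The share of strong Hox peaks was above that of a whole list in every library, by little in the lowest.

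Overlapping peaks of the 12 libraries merged into 166 Hox sites, 134 between the first and last gene and 32 in the flanks. Of these, 36 (21.7%) had a peak in all 12 libraries, against a background of 15.9% over all 114651 sites of the genome, and 47 (28.3%) had one in a single library, against 32.9%. The sites in all 12 libraries numbered 9 of 46 in Hoxa, 15 of 63 in Hoxb, 3 of 26 in Hoxc and 9 of 31 in Hoxd. Within 1 kb of an end of a protein-coding gene lay 73 of the 166 sites (44.0%, background 16.6%). Among the 36 sites in all libraries 17 lay there (47.2%, background 41.3%), 10 lay elsewhere inside a gene and 9 between genes. Genes are packed closely in these clusters, which puts more of the window near a gene end.

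**Figure D1:**
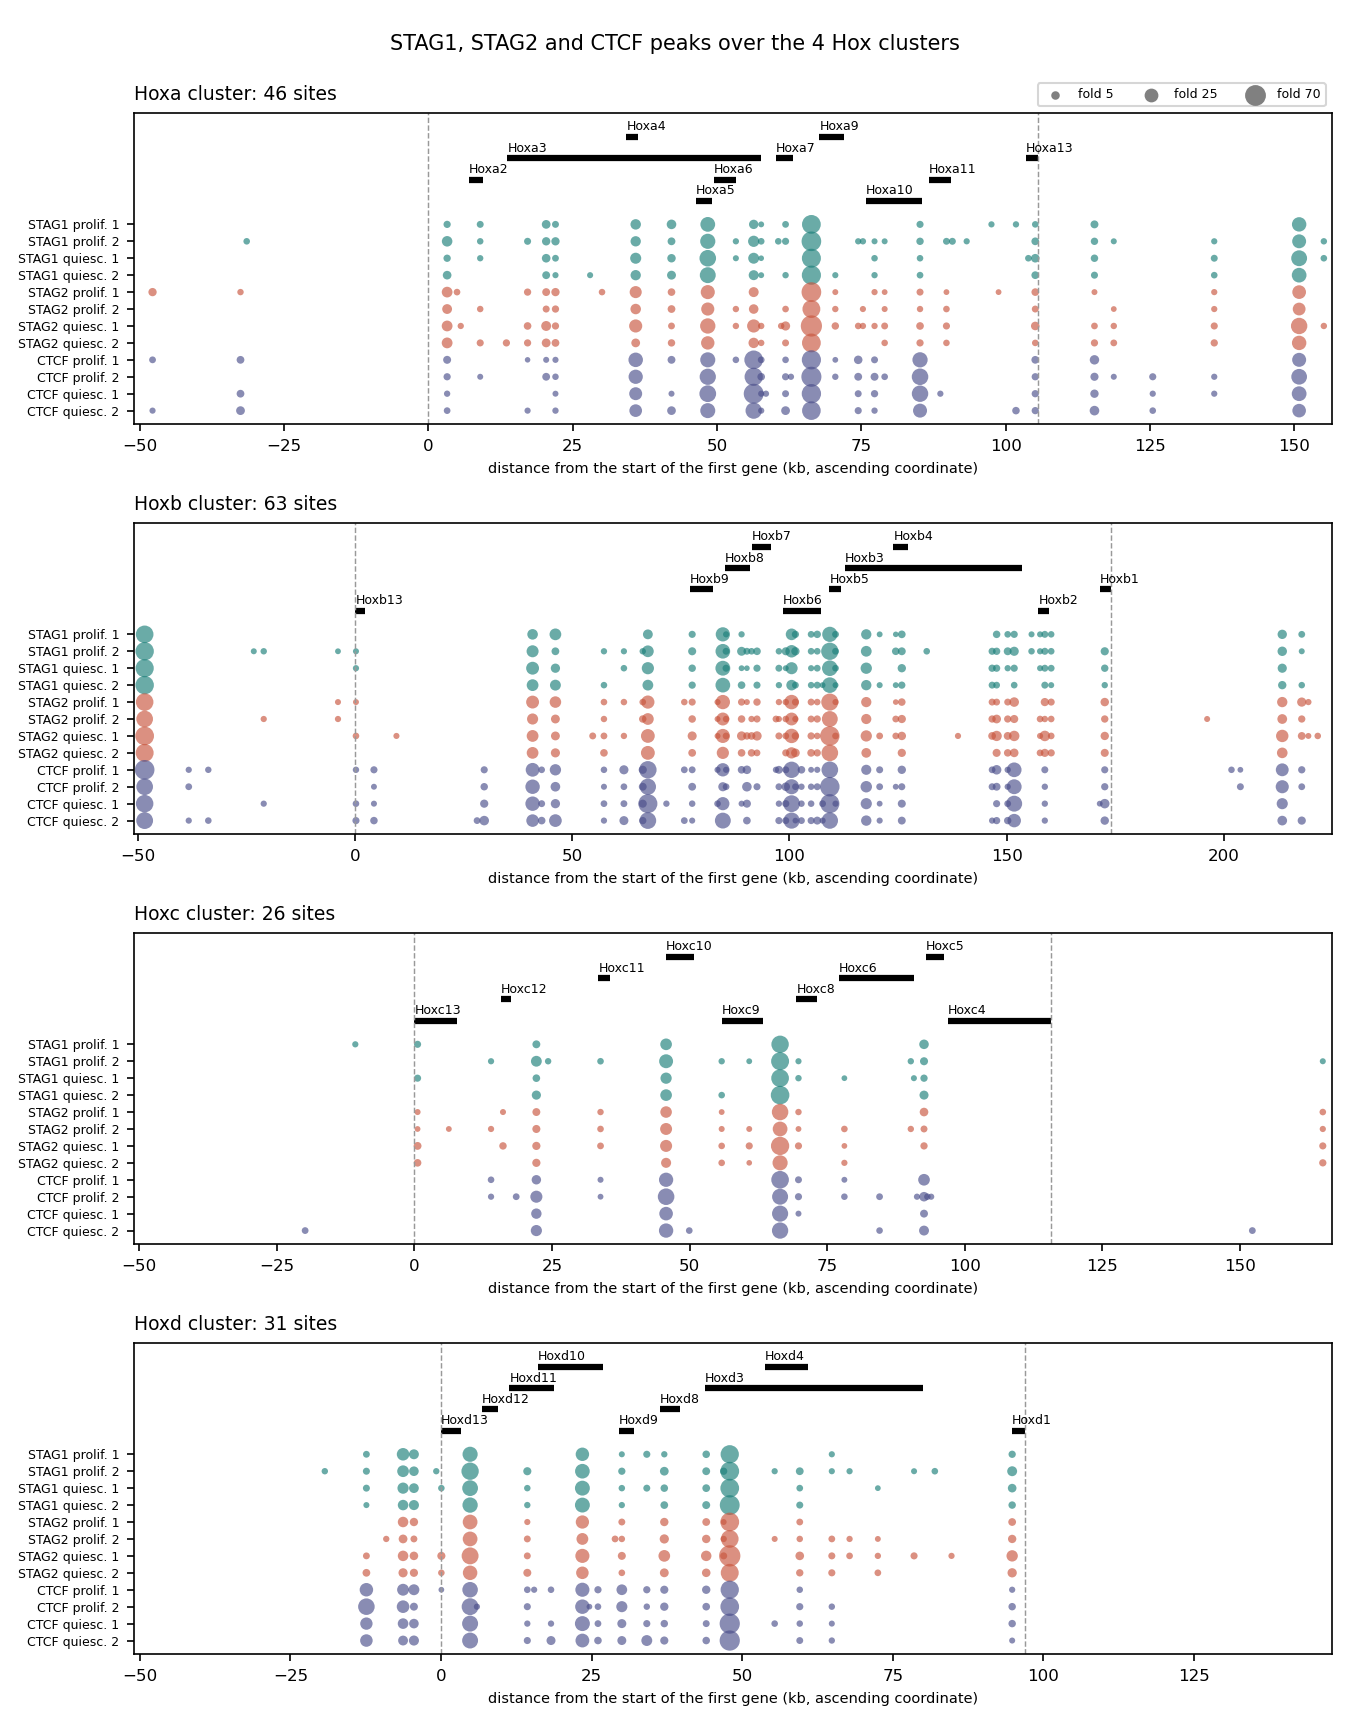
Map of the peaks over the 4 Hox clusters. The x axis is the distance in kb from the first gene of each cluster, rows are the 12 libraries, circle area grows with the authors' fold enrichment, black bars are Hox genes and dashed lines mark the first and last gene. Columns of large circles are the strong sites shared by all 12 libraries, most of them between the dashed lines, and Hoxc has the fewest columns (26 sites).

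In Hoxa the highest ranked site in all 12 libraries, chr6:52221264-52222164, lay at the 3′ end of Hoxa9, a posterior gene active in blood progenitors, between Hoxa7 and Hoxa9. Its folds in STAG1 were 70.2 and 77.1 in proliferation and 72.2 and 73.2 in quiescence. In STAG2 they were 77.6 and 63.3, then 90.5 and 70.2, and in CTCF 73.3 and 80.6, then 74.6 and 69.0. All values lay far up their lists, at a mean percentile of 99.7, and the folds of the states overlapped for each antibody. The next site, chr6:52202515-52205020, covered the start of Hoxa5, a gene needed for lung development whose promoter is printed above, and the 3′ end of Hoxa6. STAG1 folds there were 42.0 and 44.5 in proliferation and 53.9 and 49.5 in quiescence, STAG2 folds 37.9 and 32.4, then 45.6 and 34.1, and CTCF folds 44.0 and 51.7, then 55.0 and 43.4. Both quiescent STAG1 folds were above both proliferating ones, but by rank in their own lists the STAG1 states overlapped (percentiles 95.7 and 97.0, then 98.1 and 96.6). STAG2 and CTCF folds overlapped between states. The third, chr6:52305717-52306662, lay beyond Hoxa13 with Evx1, a homeobox gene beside the cluster, as its nearest gene, and had folds of 30.7 to 52.7. STAG2 folds there were 35.7 and 30.7 in proliferation and 52.7 and 40.0 in quiescence, and the states were also apart by percentile. The STAG1 states were apart by fold but overlapped by percentile, and CTCF folds overlapped. These lists differ in length, and the differences were not tested.

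In Hoxd the highest site, chr2:74715568-74716743, lay inside the Hoxd3 gene model between Hoxd8 and Hoxd4. STAG1 folds were 66.4 and 70.4 in proliferation and 69.9 and 78.9 in quiescence, STAG2 folds 70.4 and 61.9, then 91.3 and 63.9, and CTCF folds 66.4 and 69.4, then 81.8 and 81.8. Both quiescent CTCF folds were above both proliferating ones, and so were their percentiles (99.28 and 98.94, then 99.52 and 99.96). These lists differ in length, and the difference was not tested. STAG1 and STAG2 folds overlapped between states. A site between Hoxd13 and Hoxd12, chr2:74672607-74673494, had folds of 40.4 to 59.4. A site over a start of Hoxd10, chr2:74691297-74692090, where the printed promoter lies, had folds of 25.7 to 43.2. Hoxd10 to Hoxd13 are the limb and genital genes of this cluster.

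In Hoxb the highest site, chr11:96145175-96146442, lay inside Ttll6, a tubulin glutamylase gene next to the cluster, at the outer edge of the window, with folds of 54.5 to 76.9. Inside the cluster an end of Hoxb5, chr11:96302908-96304294, had folds of 44.8 to 75.9 and an end of Hoxb8, a regulator of blood cell growth, chr11:96278657-96279271, folds of 13.8 to 49.1. At the Hoxb8 site the low value was 1 CTCF library, proliferating replicate 2, and the other 11 were at 27.6 or above. In Hoxc the highest site, chr15:102987112-102988018, lay between Hoxc9 and Hoxc8, with folds of 41.9 to 68.9. An end of Hoxc10, chr15:102966242-102967460, had 17.5 to 54.0, and a site between Hoxc12 and Hoxc11, chr15:102942805-102943748, 8.48 to 26.9. These 3 were the only Hoxc sites in all 12 libraries, so the sparsest cluster still had 1 site near the top of every list, at a mean percentile of 98.4.

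At a few sites CTCF ranked high in its lists while STAG1, and at some of them also STAG2, ranked low. These sites were chosen after their values were seen, and ranks in lists of different lengths are set side by side only as a description. The end of Hoxa10 that holds the printed promoter, chr6:52240005-52241054, had CTCF folds of 45.0 and 53.7 in proliferation and 53.0 and 37.3 in quiescence, STAG1 folds of 5.34 to 7.86 and STAG2 folds of 4.84 to 8.67. Those values are for the merged site, and the printed window runs past its end: peaks of 4 CTCF and 3 STAG2 libraries reached the window and none of STAG1. Its mean percentile was 95.8 in the CTCF lists, 33.8 in the STAG1 lists and 34.5 in the STAG2 lists. A site inside the Hoxb3 gene model, chr11:96345331-96346796, had CTCF folds of 34.3 to 49.4 (mean percentile 94.4), STAG2 folds of 10.2 to 19.2 (71.4) and STAG1 folds of 5.66 to 14.0 (45.3). The Hoxa9 site, for contrast, had mean percentiles of 99.6, 99.7 and 99.9 for CTCF, STAG1 and STAG2. Each of these merged sites thus held peaks of all 3 proteins, but with unlike ranks at the Hoxa10 and Hoxb3 sites. Peaks of a merged site need not all overlap each other.

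**Figure D2:**
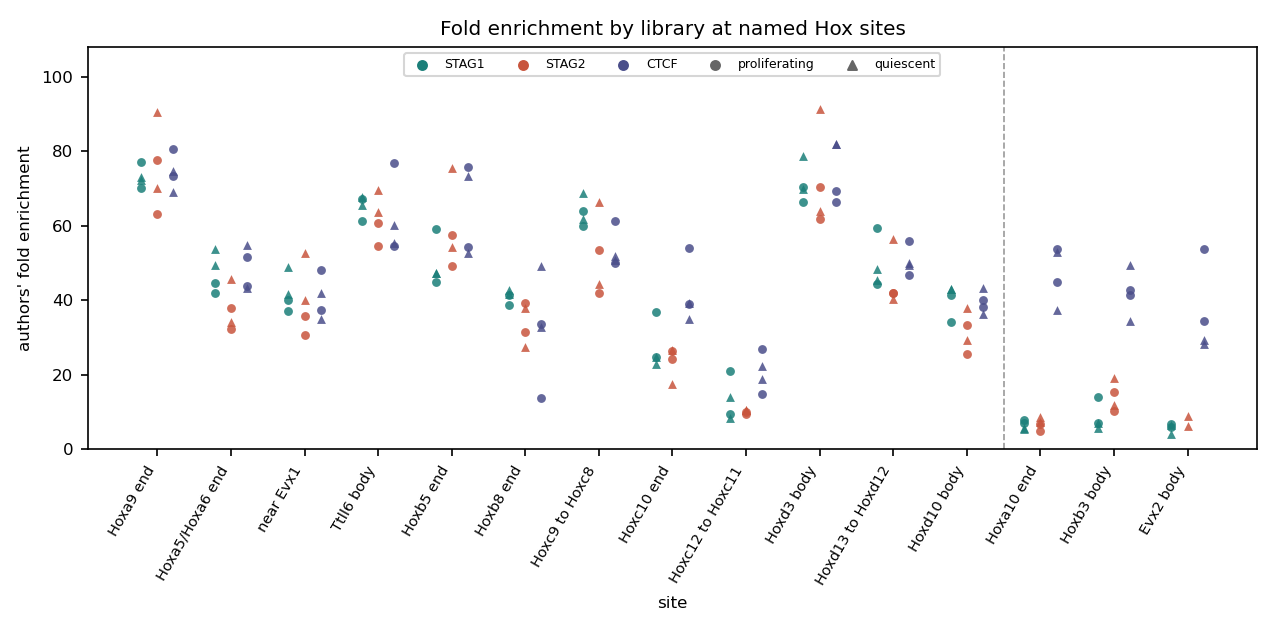
Fold enrichment of each library (y axis, the authors' values) at the 3 highest ranked sites of each cluster among those in all 12 libraries (left of the dashed line) and at 3 sites where CTCF ranked high and STAG1 low, chosen after their values were seen (right of it). Circles are proliferating and triangles quiescent libraries, coloured by antibody. STAG and CTCF values overlap at the Hoxa9 end, while at the Hoxa10 end CTCF lies at 37.3 or above and STAG1 and STAG2 at 8.67 or below.

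Gene by gene, a gene was called occupied in a library when a peak lay within 1 kb of either of its ends. Occupied in all 12 libraries were 17 of the 39 Hox genes (43.6%), against a background of 36.3% of all genes. They were Hoxa3, Hoxa4, Hoxa5, Hoxa6, Hoxa9, Hoxa10 and Hoxa13, then Hoxb2, Hoxb5, Hoxb6, Hoxb8 and Hoxb9, then Hoxc10 alone in Hoxc, and Hoxd1, Hoxd3, Hoxd8 and Hoxd9. Hoxa5 and Hoxa6 share a peak, so the 17 genes are not 17 separate observations. No library had a peak at an end of Hoxb3 or Hoxc4, 2 of 39 (5.13%), against 32% of all genes. The strong site inside Hoxb3 described above lay just beyond the 1 kb limit, as it ended at 96346796 and the gene model at 96347930.

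The other 20 genes were occupied in 1 to 11 libraries. Hoxa11, a gene of the forearm, kidney and uterus, had folds of 3.45 to 6.99 in 1 STAG1 and 4 STAG2 libraries. Hoxc9 and Hoxc13, the latter a hair and nail gene, also had all 4 STAG2 libraries, 2 of STAG1 and none of CTCF. At these genes STAG2 was called in every one of its libraries and CTCF in none.

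At Hoxd10, Hoxd11 and Hoxd12 the gene ends had CTCF peaks and few or no STAG peaks. Hoxd10 had peaks at its ends in 4 CTCF libraries and 1 STAG2 library, at folds of 5.50 to 8.34. Hoxd11 had them in 3 CTCF libraries (4.67 to 13.3) and Hoxd12 in 1 CTCF library (4.49), with no STAG peak within 1 kb of either gene's ends. A second start of Hoxd11 inside its gene model, chr2:74682073-74682372 with its promoter window, lay under peaks of 2 STAG1, 3 STAG2 and 3 CTCF libraries, so the absence concerns the ends of the model used. Hoxd13, a gene of digits and the urogenital tract, had 2 STAG1, 2 STAG2 and 1 CTCF library, at 3.25 to 10.2. The strong Hoxd10 site of all 12 libraries is not counted here, because the gene model used for the ends starts upstream of the printed promoter.

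Of the rest, Hoxb1 and Hoxc5 were occupied in 11 libraries, Hoxb7 in 10 and Hoxc8 in 8. Hoxb4, Hoxb13, Hoxc6 and Hoxd4 had 7 libraries each, Hoxa2, Hoxa7 and Hoxc11 had 6, and Hoxc12 had 3. The highest fold at an end of any of these was 24.9, at Hoxc5. None of them came near the Hoxa9, Hoxa5 or Hoxb5 ends, whose medians over 12 libraries were 73.2, 44.2 and 54.3.

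**Figure D3:**
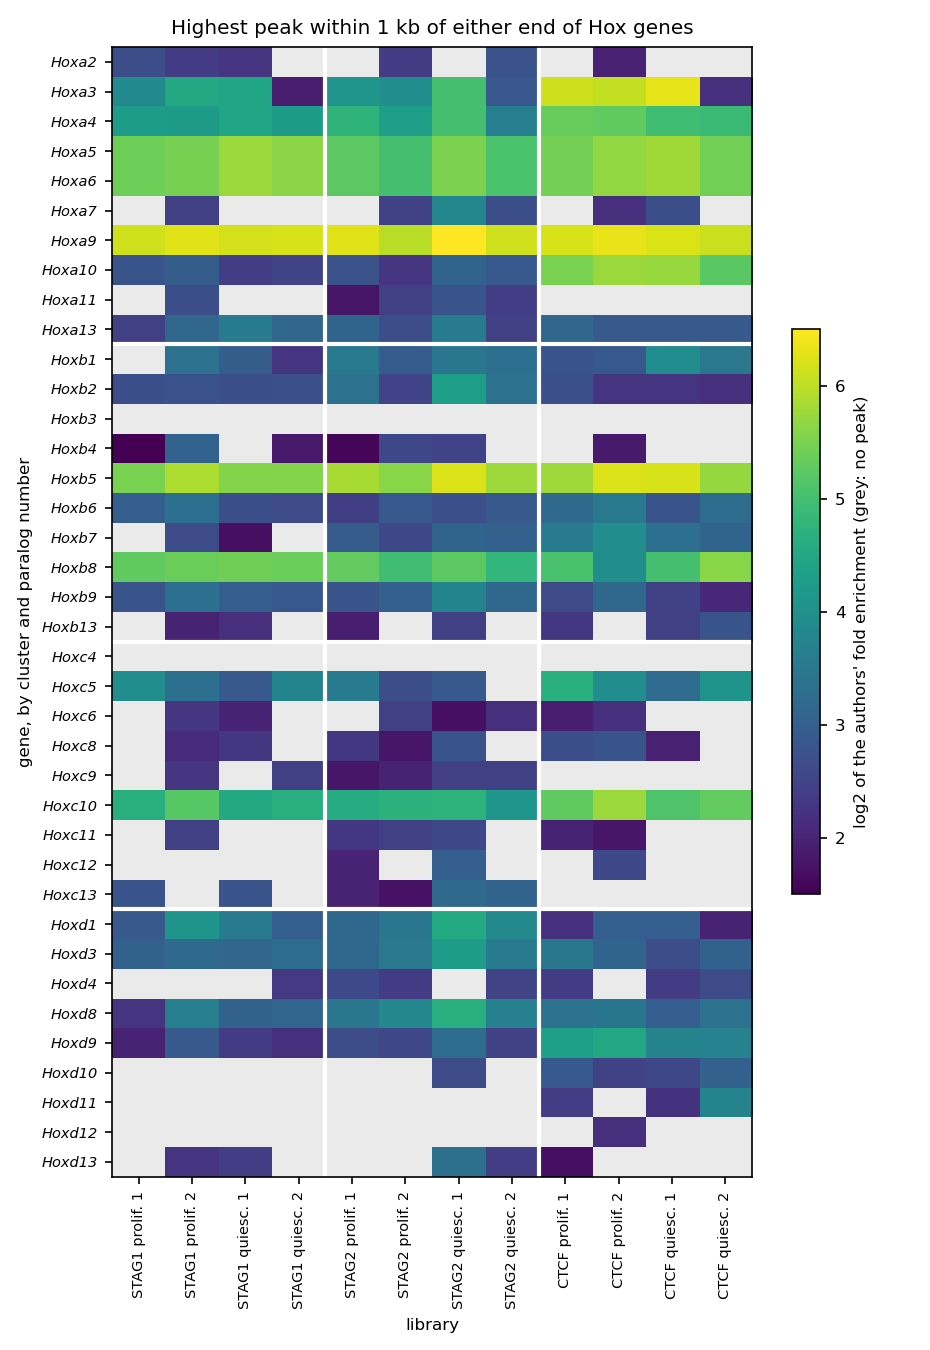
Log2 of the authors' fold enrichment of the highest peak within 1 kb of either end of the Hox genes (rows, by cluster and paralog number) in the 12 libraries (columns). Grey means no peak. Hoxa9 is bright in every column, Hoxb3 and Hoxc4 are grey throughout, and Hoxd10 to Hoxd12 are filled almost only in CTCF columns.

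Occupied in all 12 libraries, by position, were 4 of 8 anterior genes (paralogs 1 to 3, 50%) and 7 of 15 central genes (4 to 8, 46.7%). Of 16 posterior genes (9 to 13) 6 were, or 37.5%, and the background of all genes was 36.3%. By cluster the genes occupied in all 12 libraries were 7 of 11 in Hoxa, 5 of 10 in Hoxb, 1 of 9 in Hoxc and 4 of 9 in Hoxd. Of the group 9 paralogs Hoxa9, Hoxb9 and Hoxd9 were occupied throughout and Hoxc9 was not, and no gene of groups 7, 11 and 12 was. Paralog groups hold 2 to 4 genes, too few to compare. Occupied in both libraries of a group were 21 of 39 genes for proliferating STAG1 (background 48.8%) and 19 for quiescent STAG1 (47%). For STAG2 these were 28 (54.6%) and 26 (54.3%), and for CTCF 24 (50.1%) and 24 (46.6%). As shares of the 39 they ran from 48.7% to 71.8%.

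Strand was known for 22 Hox genes. The 5′ end was occupied in all 12 libraries in 9 of them (40.9%, background 32.6%): Hoxa3, Hoxa5, Hoxa10, Hoxa13, Hoxb8, Hoxd1, Hoxd3, Hoxd8 and Hoxd9. For Hoxb8 this end is that of the gene model, and the Hoxb8 promoter window, chr11:96281655-96281954, had a peak in no library. The 3′ end was occupied in all 12 in 2 (9.09%, background 5.73%), Hoxa6 and Hoxa9. CTCF reached the 3′ end in both libraries in 5 of 22 genes in proliferation (22.7%, background 11.9%) and in 7 of 22 in quiescence (31.8%, background 11.7%). In both libraries of a group the 5′ end was occupied in 11 and 10 of the 22 genes for STAG1 (proliferating and quiescent, backgrounds 45.5% and 43.6%), 12 and 13 for STAG2 (51.7% and 51.8%) and 10 and 10 for CTCF (45.5% and 41.5%). The narrower promoter windows had a peak in both libraries in 7 and 6 of 24 for STAG1 (backgrounds 41.1% and 38.1%), 6 and 9 for STAG2 (48.5% and 48.6%) and 8 and 8 for CTCF (38.3% and 33.6%). These shares lay below the backgrounds, apart from CTCF in quiescence, where they were close. In those windows 5 of 24 had a peak in all 12 libraries (20.8%, background 24.9%): Hoxa5, Hoxd3, Hoxd8, Hoxd9 and Hoxd10.

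Quiescence against proliferation was the first comparison of the design. None of the exact tests over all 3 antibodies reached 0.05. They permuted the state within each antibody and averaged the effect over the antibodies, so no antibody was tested alone. Peak numbers were 86.0 ± 32.5 in proliferating and 71.5 ± 6.36 in quiescent STAG1 libraries (mean ± SD, n = 2 each), 89.0 ± 7.07 and 88.0 ± 22.6 for STAG2, and 91.5 ± 3.54 and 84.0 ± 4.24 for CTCF. Only for CTCF did both quiescent counts lie below both proliferating ones. The mean log2 ratio over the antibodies was -0.14 (exact two-sided permutation p = 0.454, 216 arrangements, smallest possible p 0.00926). Adjusted by Benjamini-Hochberg over the 6 tests of the design, p was 0.544.

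As a share of all peaks of a library, Hox peaks took 0.162% and 0.216% of the proliferating and 0.214% and 0.183% of the quiescent STAG1 lists. STAG2 gave 0.178% and 0.206%, then 0.271% and 0.210%, and CTCF 0.155% and 0.170%, then 0.156% and 0.121%. Both quiescent STAG2 shares were above both proliferating ones, and for STAG1 and CTCF the states overlapped. The mean log2 ratio was 0.05 (exact two-sided permutation p = 0.694, adjusted p = 0.694), made up of 0.07 for STAG1, 0.33 for STAG2 and -0.23 for CTCF. Subtracting the CTCF change from the mean STAG change gave a log2 difference of 0.42 (exact two-sided permutation p = 0.111, not adjusted and outside the family of 6). The same subtraction for peak number and occupied genes gave unadjusted exact permutation p of 0.954 and 0.519. The quiescent STAG2 lists were also shorter than the proliferating ones, at 38407 and 34281 peaks against 47295 and 45582 in proliferation, and the part of list length in the share was not tested.

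Occupied Hox genes numbered 22 and 31 in the proliferating and 27 and 22 in the quiescent STAG1 libraries, 30 and 31, then 33 and 28, for STAG2, and 28 and 29, then 26 and 24, for CTCF. In the same order of libraries, the background of all genes occupied was 49.6%, 59.8%, 50.7% and 51.9% for STAG1, 57.2%, 58.2%, 58.4% and 55.6% for STAG2, and 53.9%, 54.8%, 49.4% and 53% for CTCF. The mean difference between the states was -1.83 genes (exact two-sided permutation p = 0.380, adjusted p = 0.544), with 0 genes for STAG2, -2 for STAG1 and -3.5 for CTCF. Both quiescent CTCF libraries were below both proliferating ones.

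**Figure D4:**
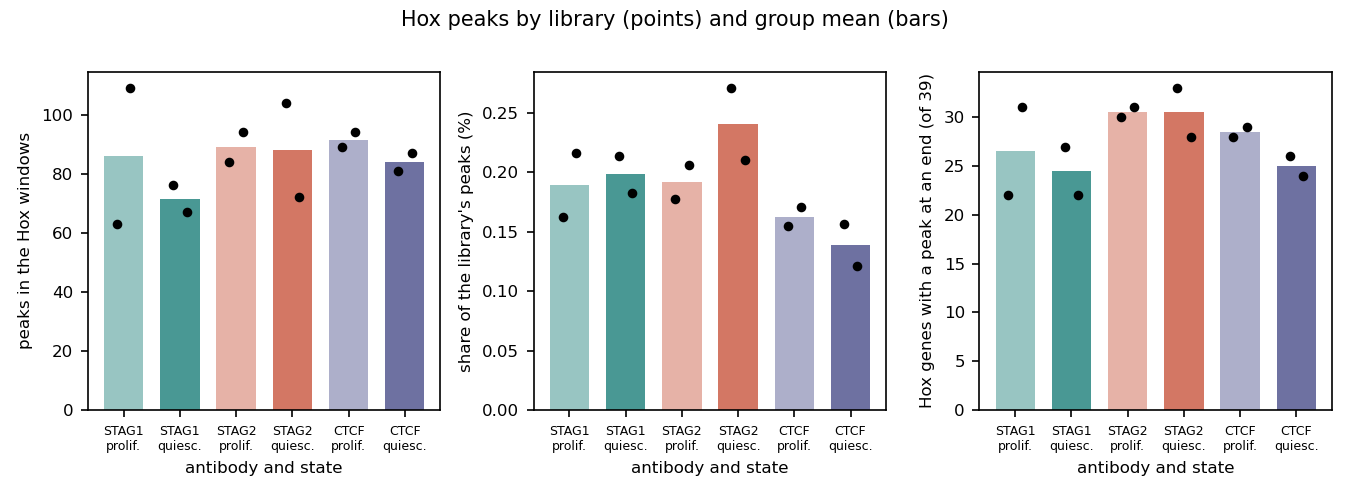
Peaks in the Hox windows (left), their share of the library's peaks in percent (middle) and the number of the 39 Hox genes with a peak within 1 kb of an end (right), by antibody and state. Points are the 2 libraries of a group and bars their mean. The quiescent STAG2 shares, 0.271% and 0.210%, lie above the proliferating ones, and the proliferating STAG1 counts, 63 and 109, lie farthest apart.

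Few individual Hox sites switched with the state. A site was called lost by an antibody when both proliferating and no quiescent library had a peak, and gained when the reverse held. STAG1 lost 2 of 56 sites (3.57%, background 7.75%) and gained 0 of 54 (background 1.28%). STAG2 lost 2 of 67 (2.99%, background 10.2%) and gained 3 of 68 (4.41%, background 1.93%). CTCF lost 7 of 71 (9.86%, background 4.58%) and gained 1 of 67 (1.49%, background 7.64%). With 2 libraries a group these counts have no test, and each changed under other ways of matching or thresholding peaks.

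The gained STAG2 sites lay in Evx2, the homeobox gene next to Hoxd13, at an end of Hoxd13 and at an end of Hoxa3. In Evx2, chr2:74655198-74656471, STAG2 had no peak in proliferation and folds of 6.25 and 8.95 in quiescence. STAG1 was there at 6.13, 6.75, 6.60 and 4.00 and CTCF at 34.4, 53.7, 28.3 and 29.2, in the same order of libraries. At this site STAG1 and CTCF therefore had peaks in both states where STAG2 had them in 1. Within 1 kb of the ends of Evx2, however, STAG2 had stronger peaks in both states, at 19.5 and 12.5, then 19.5 and 13.9. At Hoxd13, chr2:74667756-74668806, the STAG2 folds in quiescence were 10.2 and 5.33, and at Hoxa3, chr6:52212473-52213566, 5.00 and 5.00. The same end of Hoxa3 had stronger STAG2 peaks in both states at a site just beside it, chr6:52211059-52212381. STAG2 folds at that neighbouring site were 17.2 and 15.5 in proliferation and 32.8 and 18.97 in quiescence. The lost STAG2 sites, chr11:96260184-96260853 and chr11:96190090-96190572, lay upstream of Hoxb9 and outside Hoxb13. Their proliferating STAG2 folds were 5.67 and 8.0, and 3.99 and 4.49. A site beside the first, chr11:96261321-96262074, had STAG2 folds of 32.8 and 25.3 in proliferation and 36.2 and 36.6 in quiescence.

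Among the sites lost by CTCF, the highest ranked, chr6:52175170-52176390, lay inside the Hoxa3 gene model with CTCF folds of 4.00 and 9.14 in proliferation and peaks of all 8 STAG libraries at 6.67 to 17.0. The next 4 lay at an end of Hoxb8, beyond Hoxb1, at an end of Hoxc11 and between Hoxc13 and Hoxc12, with CTCF folds of 3.33 to 6.49. The lost site at Hoxb8 lay beside the Hoxb8 site of all 12 libraries named above, where CTCF folds were 13.8 to 49.1. The 1 site gained by CTCF, at an end of Hoxb6, had folds of 6.04 and 4.36. STAG1 lost a site inside Hoxd3 (folds 4.37 and 4.33) and one between Hoxb3 and Hoxb2 (4.00 and 5.22). The folds of the sites named as lost or gained were at most 10.2 in the antibody that switched. All were weak beside the 3 highest ranked sites in all 12 libraries of Hoxa, Hoxb and Hoxd.

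STAG2 against STAG1 was the second comparison. More Hox genes were occupied by STAG2, 30.5 ± 0.707 against 26.5 ± 6.36 in proliferation and 30.5 ± 3.54 against 24.5 ± 3.54 in quiescence (mean ± SD, n = 2 each), but the difference did not pass the test. The mean difference was 5 genes (exact two-sided permutation p = 0.222, adjusted p = 0.544, 36 arrangements, smallest possible p 0.0556), so this design could not reach 0.05. In quiescence both STAG2 libraries were above both STAG1 libraries, and in proliferation they overlapped. Over all genes the share occupied was 55.6% to 58.4% for STAG2 and 49.6% to 59.8% for STAG1. Hox peak numbers differed by 0.17 on the log2 scale, STAG2 over STAG1 (exact two-sided permutation p = 0.444, adjusted p = 0.544, smallest possible p again 0.0556).

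No Hox site had 1 STAG protein in all 4 of its libraries and the other in none. STAG2 had a peak in all 4 of its libraries at 55 of the 166 sites (33.1%, background 23.4%) and STAG1 at 46 (27.7%, background 22.1%). Of those 55 sites 0 lacked STAG1 in every library (background 0.873%), and of the 46 sites 0 lacked STAG2 (background 1.32%). With backgrounds this low, fewer than 1 such site would be found at the genome's share.

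CTCF with cohesin was the third comparison. Most STAG peaks in the Hox windows shared at least 1 bp with a peak of some CTCF library. The shares were 88.9% and 73.4% in proliferating and 89.5% and 95.5% in quiescent STAG1 libraries, and 84.5% and 79.8%, then 75% and 86.1%, for STAG2. Over all peaks of the same lists the shares were 72.0% to 88.1%, lower than the Hox share in 6 of 8 libraries. That order was not stable. It held in 7 of 8 libraries without flanks, but in 4 of 8 with −log10 q of at least 5. With the top 20000 peaks of each list it held in 3 of 8. Where a peak of both CTCF libraries of the same state was required, it held in 4 of 8. Both quiescent STAG1 shares were above both proliferating ones, and the STAG2 states overlapped. The mean difference, quiescent less proliferating, was 4.88 percentage points (exact two-sided permutation p = 0.444, adjusted p = 0.544, smallest possible p 0.0556), made up of 11.4 for STAG1 and -1.60 for STAG2. STAG1 proliferating replicate 2, the library with the lowest share, was also the longest STAG list, and the part of list length was not tested.

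STAG2 had 5 sites with a peak in all 4 of its libraries and in no CTCF library, 9.09% of 55 against a background of 8.44%. They lay at ends of Hoxc13 (chr15:102921075-102922304), Hoxb2 (chr11:96354212-96354952), Hoxa11 (chr6:52244613-52245596) and Hoxc9 (chr15:102976188-102977714), and beyond Hoxc4 (chr15:103085836-103086530). At Hoxc13 the STAG2 folds were 4.00 and 3.33 in proliferation and 9.34 and 8.48 in quiescence. Both quiescent values were above both proliferating ones, also by percentile (6.88 and 1.23, then 48.9 and 41.0). The lists again differ in length, and the difference was not tested. At Hoxb2, a hindbrain gene, the STAG2 folds were 6.80 and 5.60, then 5.80 and 7.25. Hoxb2 was also the 1 site of 46 where STAG1 had all 4 libraries and CTCF none (2.17%, background 3.75%), with folds of 5.25, 5.60, 6.0 and 4.00. Of the 5 sites 3 were in the Hoxc window, the cluster with the fewest sites.

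CTCF had 4 sites of 59 with a peak in all 4 CTCF libraries and no STAG peak (6.78%, background 19.4%). In Hoxb, 2 lay between Hoxb13 and Hoxb9 (chr11:96223725-96224292, folds 6.99, 7.98, 10.5 and 15.5, and chr11:96198166-96199062, folds 7.00, 3.75, 4.00 and 8.16). Another lay inside Hoxb6 (chr11:96296655-96297480, 8.48, 4.86, 5.18 and 6.13) and the last at an end of Hoxd10 (chr2:74694012-74694544, 7.34, 5.50, 6.0 and 8.34). Of the microRNA genes in the windows, whose share was not set beside that of all microRNA genes, Mir10a, Mir10b, Mir196a-1 and Mir196a-2 had no peak over them in any library, Mir615 had 1 in 1 library and Mir196b, between Hoxa9 and Hoxa10, had one in 3.

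Genes that work with or on Hox genes were examined the same way, with the backgrounds for both libraries of a group given above. Of 9 genes of the TALE cofactors, the Pbx, Meis and Pknox homeodomain partners of Hox proteins, 6 were occupied in all 12 libraries (Meis1, Meis2, Meis3, Pbx3, Pbx4 and Pknox1) and 0 in none. STAG1 occupied 8 in each state, STAG2 8 and 9, and CTCF 7 in each. Meis2 had folds of 12.3 to 28.9 and Pknox1 of 3.87 to 8.23.

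Of 18 genes of Polycomb complexes, which silence Hox genes, 11 were occupied in all 12 libraries, among them Ezh2, the methyltransferase of complex PRC2 (folds 5.00 to 16.0), and Pcgf2 (15.0 to 43.3). STAG2 occupied 17 in both states, STAG1 15 in both, and CTCF 15 in proliferation and 14 in quiescence. Of 7 genes of the MLL or trithorax complexes, which keep Hox genes active, 4 were occupied in all 12 (Kmt2a, Kmt2b, Men1 and Wdr5), with Kmt2b at 23.0 to 41.4, and Dpy30 in none. Each state and antibody gave 4 or 5 of the 7.

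Of 7 upstream regulators, 4 were occupied in all 12 libraries, namely Cdx2, a caudal homeobox gene that acts on the clusters (folds 6.99 to 60.3), Gdf11, and the retinoic acid receptor genes Rara and Rarg, while Rarb and Cdx4 were occupied in none. Of 12 neighbours of the clusters 6 were occupied in all 12, among them Skap2 beside Hoxa at 43.0 to 71.1, and Calcoco1 in none. In quiescence STAG2 occupied 10 of these neighbours, STAG1 9 and CTCF 7. None of these small lists was tested, and their shares stand beside 36.3% of all genes occupied in all 12 libraries.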

How the data were processed

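ChIP-seq peak lists of 12 libraries were used, 1 list per library and replicates not pooled. The submitters' processing notes name BWA, Picard and MACS2, besides bcl2fastq and HOMER, and the build mm10, and versions are not given in the sources used here. Each deposited list gives a fold enrichment (a linear ratio over background), a −log10 p and a −log10 q per peak, all computed by the authors. A sample titled input but labelled IgG was not analysed here, so which control the fold refers to is not settled.

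The labels gave each library's antibody and state. Peaks sharing at least 1 bp over the 12 libraries were merged into sites. Gene positions came from RefSeq (GRCm38.p6). Each end of a gene was widened by 1 kb in both directions. The fold of a site or gene end in a library is that of its highest peak, and a percentile is its rank by fold in that list. Tests were exact two-sided permutations over libraries, within antibody or state, with Benjamini-Hochberg adjustment over 6 tests. They were tested on simulated data. The 2 libraries of a group are labelled biological replicates. Members, lists and tests were chosen with earlier results of these data known. In each cluster the 3 sites ranked highest in all 12 libraries were named, and up to 5 lost, gained or protein-specific sites of each kind. Alternatives were −log10 q of at least 5, the top 20000 peaks of each list, summits within 250 bp, 2 kb at gene ends, no flanks, 50% of a STAG peak covered by CTCF, both CTCF libraries of the same state, a replicate block and leaving out each library. Python 3.11.15, numpy 2.4.6 and pandas 2.3.3 were used. The gene table did not hold 1 of the 13 neighbours written, Prac1. Results of 2 genes are not reported here by name, and counts include them.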

Additional observations from a re-analysis of the deposited data

How the results depend on the processing

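The 3 tests between states over all antibodies did not reach 0.05 under any alternative run. The other 3 could not, since the smallest p they allow is 0.0556, which says nothing about their stability. Several differences changed direction. With the top 20000 peaks of each list the quiescent to proliferating log2 ratio of Hox peak number was 0.18 (exact permutation p = 0.111), the difference in occupied genes 1.17, and that in the share of STAG peaks with CTCF -11.3 points. With −log10 q of at least 5 the last 2 were 0.67 and -2.38. Leaving out each library in turn gave -0.249 to 0.0143 for peak number (0.0143 without STAG1 proliferating replicate 2), -0.01 to 0.13 for the share of the list, -3.33 to -0.33 genes between states, and 1.00 to 8.75 points for the share with CTCF. The share of the list was below 0 without STAG1 proliferating replicate 1 (-0.0094), STAG2 quiescent replicate 1 (-0.0103) or CTCF quiescent replicate 1 (-0.0102). STAG2 less STAG1 ranged from 2.75 to 7.25 genes and from 0.0036 to 0.40 on the log2 scale of peak number. The cause of these changes was not tested.

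With a replicate block the values were -0.13 (p = 0.500), 0.05 (p = 0.781) and -1.83 genes (p = 0.500) between states, 5 genes (p = 0.250) and 0.19 (p = 0.375) for STAG2 against STAG1, and 4.88 points (p = 0.625), all by exact permutation. Across states the samples share only a number: over 18250 sites the same-numbered deviations of the 2 states correlated at -0.08 for STAG1, -0.08 for STAG2 and -0.38 for CTCF. Same-numbered libraries of different antibodies within a state correlated at 0.143 to 0.435, so the antibodies are not shown to be separate evidence, as the permutation within each antibody takes them. Crossing the CTCF numbers, chosen after seeing the data, gave no test under 0.05.

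Site counts moved most with the threshold. With 20000 peaks a list 61 sites were left of 166 and 20 of 36 in all 12 libraries, and counts were 0 for STAG1 lost, 2 for STAG1 gained, 0 for STAG2 lost, 1 for STAG2 gained, 0 for CTCF lost, 1 for STAG2 without CTCF and 1 for CTCF without STAG. With −log10 q of at least 5 these were 1 for STAG1 gained, 1 for STAG2 lost, 8 for STAG2 gained, 3 for CTCF lost, 2 for CTCF gained, 1 for STAG2 without CTCF and 2 for CTCF without STAG. With summits matched within 250 bp they were 1 for STAG1 lost, 7 for STAG2 gained, 2 for CTCF gained and 2 for STAG2 without CTCF. These settings leave fewer peaks or split sites by construction. Depth is unknown, so an absent peak is one not called, not an unbound site.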
